A study of Mus musculus with 4 samples.

Results

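Polyadenylated 3′ ends were examined at 10 transfer RNA genes on the plus strand of the mouse mitochondrial genome: mt-Tf, mt-Tv, mt-Tl1, mt-Ti, mt-Tm, mt-Tw, mt-Th, mt-Ts2, mt-Tl2 and mt-Tt. They were chosen by fixed coordinate spans on chrM, and they are 10 of 14 plus-strand tRNA genes, of 22 mitochondrial tRNA genes and of 37 annotated mitochondrial genes. Several spans leave out the first bases of the tRNA, where reads of the upstream mRNA or rRNA end lie, and the span of mt-Tm begins 2 nt before the gene. The ends come from 3'READS, which captures poly(A)-containing RNA fragments on beads and reads the position where the tail begins. The source was a commercial RNA mix from 11 mouse lines. In 1 library the fragments bound to the CU5T45 oligo (5 U and 45 T, stringent wash, release by RNase H), and in another to oligo(dT)10-25 beads. RNA crosslinked by UV light to CstF64, which binds RNA as part of the nuclear cleavage stimulation factor, was sequenced from proliferating C2C12 myoblasts (CLIP-seq, 2 replicates, with no control library among the samples used). The mix is not divided by cell line, so more RNA per cell and more cells of a line cannot be told apart.

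The 3'READS libraries held 6738355 reads (CU5T45) and 3482826 reads (oligo(dT)10-25), of which 2.74% and 5.57% were mitochondrial. Each oligo had 1 library. Every interval below is an exact 95% interval of counting error, and PCR copies make it too narrow. All comparisons are between these libraries, not between the conditions.

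Mitochondrial RNA is transcribed from each strand as a long precursor in which tRNAs stand between most mRNAs and rRNAs. RNase P cuts at the 5′ end of a tRNA and RNase Z at its 3′ end, which frees the mRNAs and rRNAs on either side. The freed mRNAs receive a poly(A) tail from the mitochondrial poly(A) polymerase, while tRNAs receive an untemplated CCA. A tRNA folds into an acceptor stem, which joins its ends, and D, anticodon and T arms, the T arm being the last before the 3′ end.

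Before the ends were placed, the deposited positions were compared with the mitochondrial sequence. On the plus strand the base at the deposited number plus 2 was A at 0 of 3700 CU5T45 positions and 0 of 3441 oligo(dT)10-25 positions. On the minus strand the base at the deposited number itself, read on the RNA strand, was A at 0 of 654 and 0 of 731 positions. The last base matched to the genome is therefore the deposited number plus 1 on both strands, and the deposited numbers count from 0. Every A that the genome holds directly after the cut was counted as genome and not as tail. An end whose last matched base is A can thus lie at any base of that A run or at the base before it. Positions below are given as deposited, and the earliest and latest base at which the RNA can end are given beside those that matter.

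The sequences of the 8 tRNA genes with more than 10 reads in each library are printed because the place of the ends in them is the main result. They are those of the GENCODE vM21 transcripts (GRCm38), on the plus strand of chrM, 5′ to 3′. Capitals mark the bases at which the most used end inside the gene, over both libraries, can lie.
mt-Tf, chrM:1-68: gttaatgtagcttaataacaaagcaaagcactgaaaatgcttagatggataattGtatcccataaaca
mt-Tv, chrM:1025-1093: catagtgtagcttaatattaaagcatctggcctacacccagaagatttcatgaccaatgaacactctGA
mt-Tl1, chrM:2676-2750: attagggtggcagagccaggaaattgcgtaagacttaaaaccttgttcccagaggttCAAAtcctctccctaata
mt-Ti, chrM:3706-3774: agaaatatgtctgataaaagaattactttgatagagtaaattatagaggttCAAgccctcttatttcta
mt-Tm, chrM:3845-3913: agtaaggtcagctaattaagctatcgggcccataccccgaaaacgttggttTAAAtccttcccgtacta
mt-Ts2, chrM:11613-11671: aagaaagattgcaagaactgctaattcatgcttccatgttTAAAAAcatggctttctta
mt-Tl2, chrM:11671-11741: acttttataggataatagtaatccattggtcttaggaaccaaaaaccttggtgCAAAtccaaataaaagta
mt-Tt, chrM:15289-15355: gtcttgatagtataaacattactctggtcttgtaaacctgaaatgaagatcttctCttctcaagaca

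Reads were unevenly spread over the 10 spans. The spans held 7431 CU5T45 and 7809 oligo(dT)10-25 reads, 4.49% and 4.31% of the plus-strand mitochondrial reads, at 142 and 154 positions. mt-Tm, mt-Tv and mt-Ts2 held most of them, and mt-Tw and mt-Th held almost none.

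mt-Tm, the methionine tRNA that lies between mt-Tq on the other strand and the mRNA mt-Nd2, had 3006 CU5T45 reads (446 CPM, counts per 1000000 reads of the library) and 1854 oligo(dT)10-25 reads (532 CPM). mt-Ts2, the serine tRNA that lacks a D arm, had 1714 reads (254 CPM) and 2209 reads (634 CPM). mt-Tv, the valine tRNA between both rRNAs, had 1462 reads (217 CPM) and 1902 reads (546 CPM). These 3 spans stood highest in both libraries, but mt-Tm did so by 1 position at the 5′ border of the gene. From its annotated start, and without that position, mt-Tm had 323 CU5T45 and 261 oligo(dT)10-25 reads, fewer than mt-Ti and mt-Tl1 below.

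mt-Ti, the isoleucine tRNA after the mRNA mt-Nd1, had 761 CU5T45 reads (113 CPM) and 1137 oligo(dT)10-25 reads (326 CPM). mt-Tl1, one of the leucine tRNAs, which follows mt-Rnr2, had 376 reads (55.8 CPM) and 533 reads (153 CPM). The phenylalanine tRNA mt-Tf, first gene of the strand, had 40 reads (5.94 CPM) and 123 reads (35.3 CPM).

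The remaining 4 spans were low. mt-Tt, the threonine tRNA after mt-Cytb, had 53 CU5T45 reads (7.87 CPM) and 24 oligo(dT)10-25 reads (6.89 CPM), and mt-Tl2, the other leucine tRNA, had 17 reads (2.52 CPM) and 25 reads (7.18 CPM). The tryptophan tRNA mt-Tw had 2 reads in each library. The histidine tRNA mt-Th had 0 reads in both, which allows, as a 1-sided limit, up to 3 reads, or 0.445 CPM in CU5T45 and 0.861 CPM in oligo(dT)10-25. mt-Th lies directly before mt-Ts2, so adjacent tRNAs of 1 precursor differed from 0 to 1714 CU5T45 reads.

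Per length, the CU5T45 order was mt-Tm (4234 reads per 100 nt of span), mt-Ts2 (2905), mt-Tv (2521), mt-Ti (1335), mt-Tl1 (587.5), mt-Tt (96.4), mt-Tf (58.8), mt-Tl2 (24.3) and mt-Tw (3.57). Among neighbours in that order, only the counting intervals of mt-Tt (72.2 to 126) and mt-Tf (42.0 to 80.1) overlapped. In oligo(dT)10-25 the order per 100 nt was mt-Ts2 (3744), mt-Tv (3279), mt-Tm (2611), mt-Ti (1995), mt-Tl1 (833), mt-Tf (181), mt-Tt (43.6), mt-Tl2 (35.7) and mt-Tw (3.57), and only mt-Tt (28.0 to 64.9) and mt-Tl2 (23.1 to 52.7) overlapped. The spans together held 1210 CU5T45 and 1272 oligo(dT)10-25 reads per 100 nt. These values include the 2683 CU5T45 and 1593 oligo(dT)10-25 reads at position 3844, at the 5′ border of mt-Tm. The rest of the plus strand, more than 10 nt from annotated mRNA and rRNA ends, held 356 and 257. Any mRNA end that lies outside its annotated place stays in that rest. Bases where reads may have been lost in mapping were not taken out of it. In each library 5 of the 10 spans (mt-Tv, mt-Tl1, mt-Ti, mt-Tm and mt-Ts2) were above that rest.

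**Figure D1:**
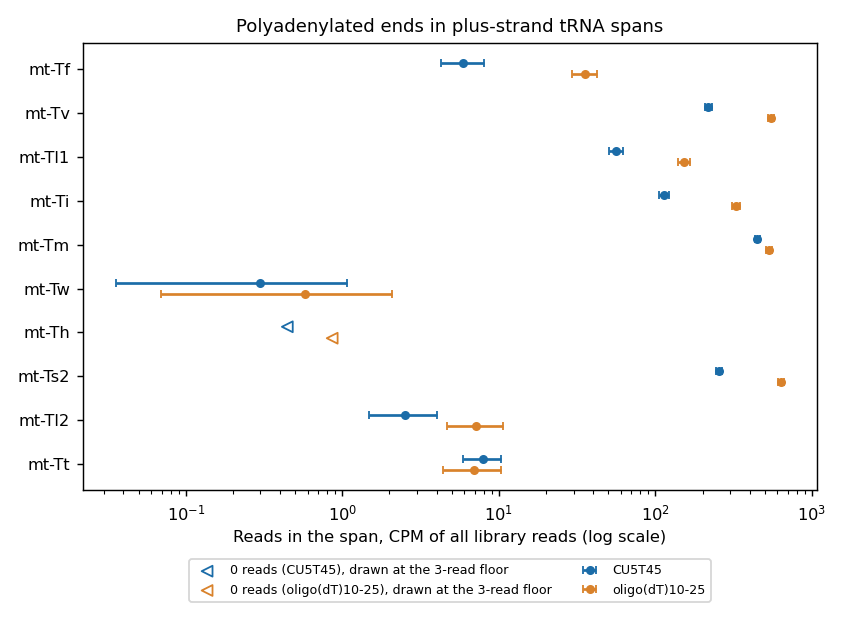
Reads in each tRNA span as CPM of all library reads (log axis), for CU5T45 and oligo(dT)10-25, 1 library each; bars are exact 95% Poisson intervals and open triangles mark 0 reads at the 3-read floor. mt-Tm, mt-Ts2 and mt-Tv lie above 200 CPM in both libraries, and mt-Tw and mt-Th at or under 1 CPM.

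The other plus-strand tRNA genes held almost no reads. Over their whole annotated length mt-Td, mt-Tk and mt-Tg had 0 reads in both libraries, and mt-Tr had 1 CU5T45 read. They stand in a stretch of the genome where mRNA ends also had few reads. Within 2 nt of the 5′ side of mt-Tg, where mt-Co3 ends, there were 8 CU5T45 and 4 oligo(dT)10-25 reads. Whether reads were lost in mapping there was not tested, so these counts do not show that ends were absent. Of the 8 minus-strand tRNA genes, read on their own strand, 5 had 30 or more reads over both libraries. The highest was mt-Tq, with 603 CU5T45 and 430 oligo(dT)10-25 reads.

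Most ends inside these tRNAs did not lie at the 3′ end of the tRNA. The most used position was within 2 nt of the annotated 3′ end in 1 of 9 spans with a read, mt-Tv, in either library. By deposited position within 2 nt of the 3′ end, mt-Tl1 had 11 CU5T45 and 21 oligo(dT)10-25 reads, mt-Ts2 had 9 and 14, mt-Ti had 2 and 0, mt-Tl2 had 0 and 2, and mt-Tt had 0 and 1. mt-Tf, mt-Tm, mt-Tw and mt-Th had 0 in both. Counted by the latest base instead, mt-Tl1 had 25 CU5T45 and 57 oligo(dT)10-25 reads and mt-Tf had 0 and 7, while the other 7 spans besides mt-Tv changed by at most 3 reads. These counts stand beside 27204 and 54043 reads within 2 nt of the 5′ side of mt-Tt, where the mRNA mt-Cytb ends.

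In mt-Ts2, in mt-Ti and inside mt-Tm most ends lay in the loop of the T arm, while in the other genes the loop held a smaller share. The 3′ strand of the arm was placed by counting back from the annotated 3′ end (past the unpaired last base, 7 bases of acceptor stem and then 5 of T stem), and the loop by the best pairing of the T stem. The loop was 4 to 8 nt long in all 10 genes, and 3 to 5 of the 5 stem pairs formed. The fewest, 3, formed in mt-Tm, so its loop is less sure. In mt-Th, which had no reads, the annotated ends gave 1 of 7 acceptor pairs, so its arm is less sure. This division was chosen after the positions had been seen, so its counts describe these libraries and support nothing. Leaving out the position before mt-Tm, 2527 of 4748 reads in the CU5T45 library ended in the loop, or 53.2% (51.8 to 54.6). With oligo(dT)10-25 it was 3287 of 6216 reads, or 52.9% (51.6 to 54.1). The loops make up 9.77% of the spans' length. The most used position inside the gene lay in the loop in 5 of 8 genes in CU5T45 (mt-Tl1, mt-Ti, mt-Tm, mt-Ts2 and mt-Tl2) and in 5 of 8 in oligo(dT)10-25 (mt-Tf, mt-Tl1, mt-Ti, mt-Tm and mt-Ts2). The 8 genes are those with 10 or more reads in each library. The pooled shares rest on mt-Ts2 and mt-Ti. Without them the loop held 389 of 2273 CU5T45 reads, or 17.1% (15.6 to 18.7), and 443 of 2870 oligo(dT)10-25 reads, or 15.4% (14.1 to 16.8). Over the 8 genes the median loop share was 35.1% and 40.8%, and the range 1.16% to 88.9% and 1.10% to 88.7%. In mt-Tl1 and mt-Tl2 more ends lay before the T arm than in its loop. For mt-Tl2 these were 11 of 17 CU5T45 reads and 14 of 25 oligo(dT)10-25 reads. By the latest base mt-Tv was alike, with 72 against 17 CU5T45 reads and 112 against 21 oligo(dT)10-25 reads, but not by the earliest. So was mt-Tt in oligo(dT)10-25, with 9 against 5 reads, but not in CU5T45, with 5 against 16.

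In mt-Ts2, position 11657 took 87.3% of the reads with CU5T45 (1497, interval 85.7 to 88.9) and 82.7% with oligo(dT)10-25 (1826, interval 81.0 to 84.2). The run of 5 A in its T loop leaves the end anywhere from 18 to 13 nt before the last base of the tRNA. A second position, 11649, had 129 and 299 reads. Its last matched base is not A, so this end is exact, 21 nt before the last base and just before the loop.

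In mt-Ti, position 3758 held 460 CU5T45 reads (60.4%, 56.9 to 63.9) and 783 oligo(dT)10-25 reads (68.9%, 66.1 to 71.5), with the end 17 to 15 nt before the last base. Position 3760 had 140 and 195 reads and an exact end at 13 nt. The loop held 80.8% (77.8 to 83.6) and 88.7% (86.8 to 90.5) of the mt-Ti reads. Both libraries thus placed the ends of this tRNA in the same few bases.

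In mt-Tl1, position 2735 was the most used in both libraries, with 89 CU5T45 reads (23.7%, 19.5 to 28.3) and 126 oligo(dT)10-25 reads (23.6%, 20.1 to 27.5), 17 to 14 nt before the last base. Its ends were spread over 30 and 33 positions in all. The T loop held 29.5% (25.0 to 34.4) and 28.0% (24.2 to 32.0) of its reads, whereas 56.9% (51.7 to 62.0) and 53.3% (48.9 to 57.6) ended before the T arm. The next in CU5T45, position 2721, had 55 and 38 reads and lay 28 nt before the last base. mt-Tl1 was therefore the most dispersed of the 5 spans with 376 or more reads in each library.

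Inside mt-Tm, position 3898 had 164 CU5T45 and 145 oligo(dT)10-25 reads, again 17 to 14 nt before the last base, and position 3899 had 60 and 50 reads with an exact end at 13 nt. Both were named after their values were seen. Of the reads inside the gene, 69.7% (64.3 to 74.6; 225 of 323) and 75.1% (69.4 to 80.2; 196 of 261) ended in the T loop. mt-Tl1, mt-Tm and mt-Tl2 share the letters AAATCC at this place, and their end lies at the same distance from the last base.

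The 3 tRNAs with fewest reads among these 8 were less sharp. In mt-Tf, position 56 was the most used in CU5T45 (14 reads, 23 in oligo(dT)10-25) and position 54 in oligo(dT)10-25 (31 reads, 7 in CU5T45), with ends 12 to 11 nt and 13 nt before the last base. The loop of mt-Tf held 35.0% (20.6 to 51.7) and 53.7% (44.4 to 62.7) of its reads. No mitochondrial position lay below 29 in either library, so no reads were placed in the first part of mt-Tf. The reference begins at the first base of mt-Tf, and whether reads that end near it could be mapped was not tested. All counts of mt-Tf share this limit. In mt-Tt, position 15343 had 13 CU5T45 and 0 oligo(dT)10-25 reads, in the T stem 11 nt before the last base, and the most used oligo(dT)10-25 position, 15323, had 3 and 5. In mt-Tl2, position 11726 had 5 reads in each library, 17 to 14 nt before the last base, and in oligo(dT)10-25 position 11714 also had 5, against 0 in CU5T45.

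**Figure D2:**
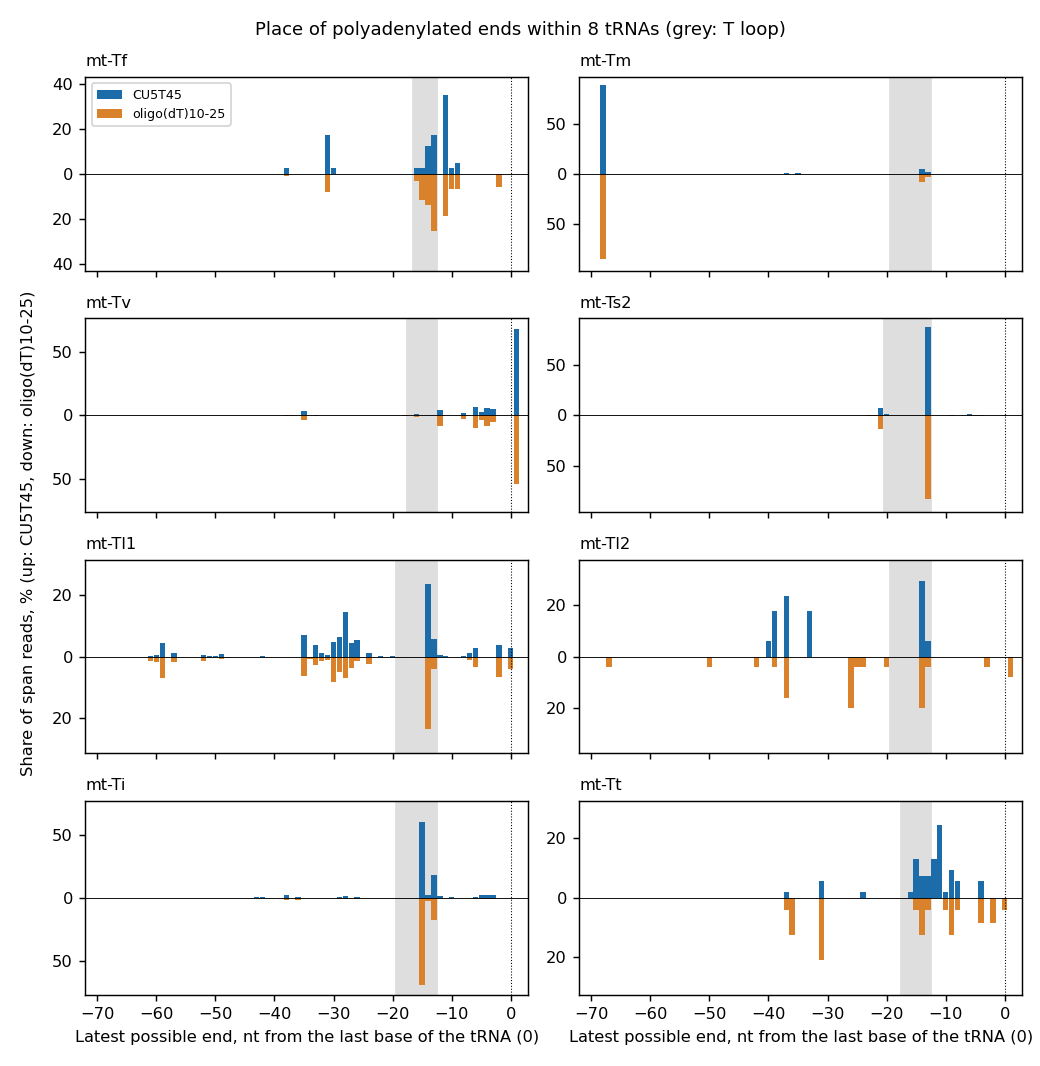
Share of the reads of each span (vertical axis, %; up for CU5T45, down for oligo(dT)10-25; scales differ between panels) at each latest possible end, in nt from the last base of the tRNA (dotted line at 0); grey marks the T loop. The tallest bars of mt-Ts2, mt-Ti and mt-Tl1 lie in the grey band in both libraries, that of mt-Tv lies at the 3′ end and that of mt-Tm at the 5′ end of the gene.

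mt-Tv was the exception, with its ends at its own 3′ border. Position 1093 held 995 CU5T45 reads (68.1%, 65.6 to 70.4) and 1020 oligo(dT)10-25 reads (53.6%, 51.4 to 55.9). The tRNA and the rRNA mt-Rnr2 that follows share an AA at the border, so the RNA can end from 1 base before the last base of the tRNA to the first base of mt-Rnr2. The stretch is printed to show this, with those bases in capitals.
mt-Tv end and mt-Rnr2 start, chrM:1074-1103: atgaccaatgaacactctGAActaatccta
Counted by the latest base, these reads end in mt-Rnr2, outside the span. The acceptor strand held another 286 of 1462 reads with CU5T45 (19.6%, 17.6 to 21.7) and 522 of 1902 with oligo(dT)10-25 (27.4%, 25.4 to 29.5), at its largest 93 and 191 reads at position 1086. The T loop of mt-Tv held 1.16% (0.679 to 1.86) and 1.10% (0.685 to 1.68) by the latest base, and 5.20% (4.12 to 6.46) and 9.67% (8.38 to 11.1) by the earliest. The 5′ side of mt-Tv, where the small rRNA mt-Rnr1 ends, had 7843 and 18262 reads within 2 nt, far above its 3′ side.

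The reads of mt-Tm were largely not ends of the tRNA. Position 3844 held 2683 CU5T45 reads (89.3%, 88.1 to 90.3) and 1593 oligo(dT)10-25 reads (85.9%, 84.3 to 87.5). The latest base of this end is 3845, the first base of mt-Tm and an A. The 2 bases before it are in no annotated transcript, so the earliest base was not determined. The last bases of this RNA lie upstream of mt-Tm on the plus strand, opposite mt-Tq, where no plus-strand gene is annotated. In that stretch, from 3775 to 3842, 150 CU5T45 and 102 oligo(dT)10-25 reads ended at 23 and 18 positions. From the annotated start on, mt-Tm had 323 and 261 reads.

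The libraries agreed on the place of the main end where reads were many. Of 8 spans with 10 or more reads in each library, 5 had an identical most used position: mt-Tv, mt-Tl1, mt-Ti, mt-Tm and mt-Ts2. They are the 5 with 376 or more reads in each library. Summing at every position the smaller of its shares of the span's reads, the profiles of both libraries overlapped by 95.6% in mt-Tm, 93.0% in mt-Ts2, 89.1% in mt-Ti, 85.3% in mt-Tv and 81.4% in mt-Tl1. In mt-Tf the overlap was 70.1%, in mt-Tt 44.6% and in mt-Tl2 44%, from 17 to 123 reads per library.

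The bases after the leading ends were not alike. In the 10 bases after the latest end there were 0 A at the main ends of mt-Tl1 and inside mt-Tm. There was 1 A in mt-Ti and in mt-Ts2, and there were 3 A in mt-Tv and at position 3844. mt-Tf had 4 A at both of its leading positions, 54 and 56. mt-Tt had 3 A at position 15343 and 4 A at 15323, and mt-Tl2 had 6 A at 11726 and 1 A at 11714. Over 9948 plus-strand bases followed by a base other than A, the median was 3 A, and 12.4% had 0 or 1.

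The libraries were then compared by the ratio of shares, the share of CU5T45 reads over the share of oligo(dT)10-25 reads. Most tRNA spans took a smaller share in CU5T45. Of 8 spans with 30 or more reads over both libraries, 7 had a ratio with an interval below 1, 0 an interval above 1, and 1 an interval that included 1. As shares of mitochondrial reads instead, 5 of the 8 were below 1, mt-Tm and mt-Tt were above 1, and mt-Tl2 included 1 (0.713, 0.362 to 1.37). Among all 16684 clusters of positions with 30 or more reads, 23.5% had an interval below 1 and 27.5% one above 1. Among 175 windows of 60 nt along the mitochondrial plus strand 57.7% had one below 1 and 9.14% one above 1. Mitochondrial reads as a whole were 2.03-fold lower in CU5T45 (2.02 to 2.04). The median ratio was 0.381 over the 8 spans, 0.665 over the windows and 1.08 over all clusters.

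mt-Tf fell most, by 5.95-fold (4.13 to 8.73), and its interval was apart from those of mt-Tv, mt-Tl1, mt-Ti, mt-Tm, mt-Ts2 and mt-Tt. In the next group mt-Ti was 2.89-fold lower (2.63 to 3.17), mt-Tl1 2.74-fold (2.40 to 3.14), mt-Tv 2.52-fold (2.35 to 2.70) and mt-Ts2 2.49-fold (2.34 to 2.66). The counting intervals of these 4 overlapped. Over its whole annotated gene, which adds the first bases that the span leaves out, mt-Ti had a ratio of 0.574 (0.566 to 0.581). This was apart from the other 3, against 0.346 in the span, but the mRNA mt-Nd1 has its annotated end in those first bases. The value is thus not a ratio of the tRNA alone. mt-Tl2, with few reads, was 2.85-fold lower with a wide interval (1.48 to 5.61).

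mt-Tm stood apart, at 1.19-fold lower (1.13 to 1.26). This value rests on position 3844, whose ratio was 0.871 (0.818 to 0.927). From its annotated start on, mt-Tm was 1.56-fold lower (1.32 to 1.85), still apart from the spans of mt-Tl1, mt-Ti, mt-Tv and mt-Ts2. Over its whole annotated gene mt-Ti had a ratio of 0.574 (0.566 to 0.581), inside this interval of mt-Tm (as a ratio, 0.542 to 0.756). That count takes in the annotated end of the mRNA mt-Nd1, so it does not compare the tRNAs. For mt-Tt the ratio was 1.14 (0.692 to 1.93), a difference that this depth could not detect.

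Taking the 10 spans together, the reads were 2.03-fold lower in CU5T45 (1.97 to 2.10), the same fold as all mitochondrial reads. Without mt-Tm the other 9 spans were 2.60-fold lower (2.50 to 2.71). Reads within 10 nt of annotated plus-strand mRNA and rRNA ends were 2.52-fold lower (2.50 to 2.54), and those in the rest of the plus strand 1.39-fold lower (1.38 to 1.41). Each tRNA of the middle group thus had an interval apart from that of the rest of the plus strand. The interval of the pooled mRNA and rRNA ends overlapped those of mt-Tv, mt-Ts2 and mt-Tl1 and was apart from that of mt-Ti. This pool joins unlike ends. Within 2 nt of the border before mt-Th, where mt-Nd4 ends, there were 12360 CU5T45 reads against 9712 in the other library. The ends of mt-Cytb (27204 against 54043), mt-Rnr1 (7843 against 18262) and mt-Rnr2 (1832 against 4499) had fewer in CU5T45. These counts are not divided by library size. The overlap holds for the pool and not for each end.

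Within a tRNA the ratio differed between ends. In mt-Tv the 3′ border at position 1093 was 1.98-fold lower (1.82 to 2.17), and position 1086, 6 or 7 nt before the last base, was 3.97-fold lower (3.09 to 5.15). In mt-Ts2 the loop end at 11657 was 2.36-fold lower (2.20 to 2.53) and position 11649 was 4.48-fold lower (3.64 to 5.56). In mt-Ti the intervals of position 3758, 3.29-fold lower (2.93 to 3.70), and position 3760, 2.69-fold lower (2.16 to 3.37), overlapped.

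**Figure D3:**
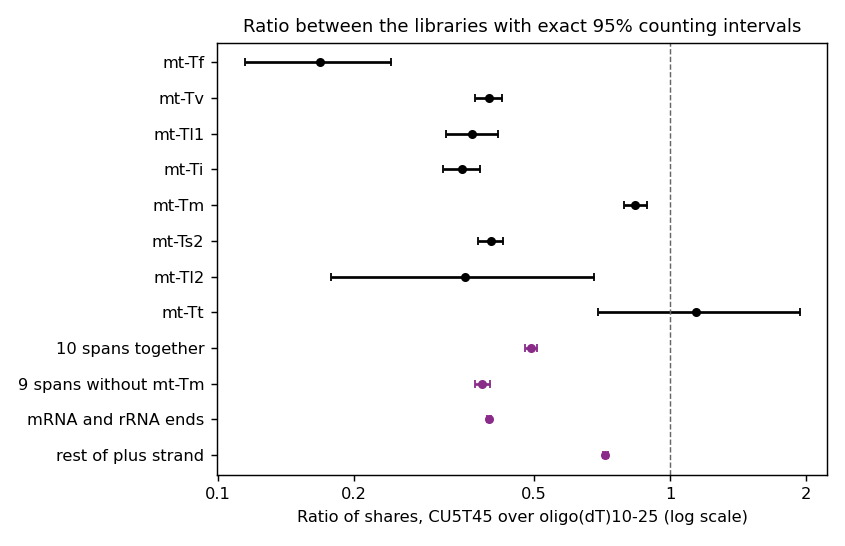
Ratio of shares, CU5T45 over oligo(dT)10-25 (log axis, dashed line at 1), with exact 95% counting intervals, for the 8 spans with 30 or more reads (black) and for sets of plus-strand reads (purple). Of the spans, 7 have an interval below 1; mt-Tm lies nearest to 1 among them and mt-Tf lowest.

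CstF64 alignments took a smaller share in the tRNA spans than the spans take of the genome's length. By midpoint on the plus strand there were 36 in replicate 1 and 46 in replicate 2, which is 0.876% (0.615 to 1.21) of 4108 and 1.01% (0.743 to 1.35) of 4538 plus-strand mitochondrial alignments. The spans make up 3.77% of the genome's length. Per 100 nt they held 5.86 and 7.49 alignments, below the 26.0 and 28.6 of the rest of the plus strand. The median window of 60 nt held fewer, 3.33 per 100 nt in each replicate. On the minus strand of the spans there were 0 in either replicate. Of the alignments in the spans, 32 were in both replicates, and the replicates are given singly because no source used here says how far they are independent.

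mt-Tv took most of them, with 20 and 27 alignments, or 34.5 and 46.6 per 100 nt, against 26.0 and 28.6 over the rest of the plus strand. The rest is uneven: the median window of 60 nt had 3.33 per 100 nt in each replicate, and 42.4% of windows had none. Whether reads were lost in mapping in the empty windows was not tested. Of the mt-Tv alignments 11 and 12 reached into mt-Rnr2, and 0 into mt-Rnr1.

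mt-Tl1 had 6 and 9 alignments, mt-Tm 6 and 4, mt-Tl2 2 and 3, mt-Tt 1 and 2, and mt-Ti 1 and 1. mt-Tf, mt-Tw, mt-Th and mt-Ts2 had 0 in both replicates, which allows, as a 1-sided limit, up to 3 alignments in each. mt-Ts2 was thus high in 3'READS and empty in CLIP, while mt-Tv was high in both. The RNA came from different cells, and no RNA level in C2C12 cells was at hand to divide the alignments by.

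**Figure D4:**
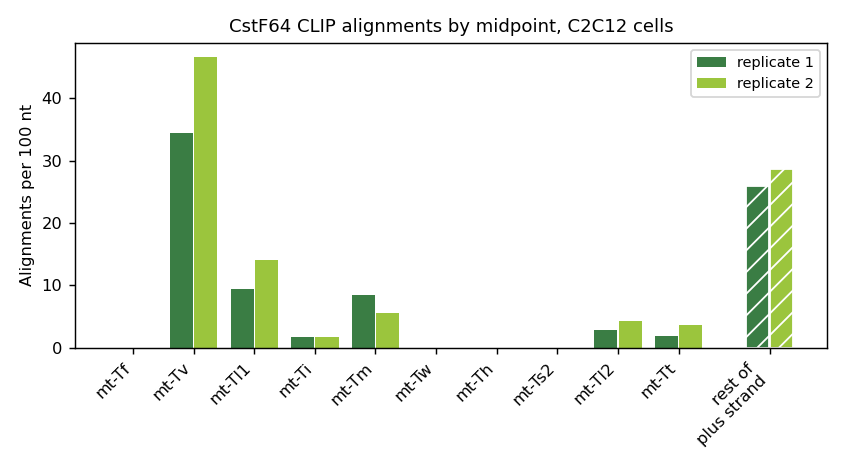
CstF64 CLIP alignments per 100 nt, placed by midpoint on the plus strand, in each tRNA span and over the rest of the mitochondrial plus strand (hatched), for the 2 replicates from C2C12 cells. mt-Tv reaches 34.5 and 46.6 per 100 nt, mt-Tl1 9.38 and 14.1, and mt-Tf, mt-Tw, mt-Th and mt-Ts2 are at 0.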

How the data were processed

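The deposited values are whole-number read counts (column 5), and the labels state no normalization. A line is 1 position and strand (3'READS) or 1 distinct alignment (CLIP). Per the submitters' processing notes the build is mm9, and Bowtie and Novoalign are named with neither version nor role. Read filters are not given in the sources used here. Annotation and tRNA sequences were those of GENCODE vM21 (GRCm38), another build, and they were used on the mitochondrial genome only, where the base test of the report shows that sequence and positions are in register.

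The members and comparison lists were chosen with earlier results of these data known. All 10 members are named. Positions are named when they lead a library or hold 10% or more of a span's reads, with the most telling given and the exceptions stated.

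Ratios of shares have the exact conditional binomial 95% interval and were computed at 30 or more reads. Shares have Clopper-Pearson and counts exact Poisson intervals. No p-value was computed. Clusters chain positions at most 24 nt apart over both libraries. On simulated data for the comparison of the oligos, with Poisson counts at 16684 clusters and 200 of them changed 2-fold, 79.5% of these were called in the right direction, and 3.95% of unchanged clusters were called. Intervals came from scipy 1.17.1 under Python 3.11.15, tables from pandas 2.3.3 and numpy 2.4.6, and figures from matplotlib 3.10.9. Alternatives changed the span limits, the position counted, the shift, the denominator, the depth, the read minimum and the placing of CLIP alignments.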

Additional observations from a re-analysis of the deposited data

How the results depend on the processing

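Of 60 alternatives to the summary values, 48 left the result the same, and of 53 alternatives to the ratios of single spans, 44 did. For a ratio, the same means its side of 1 and whether its interval excludes 1. For counts of spans and shares of clusters it means within a fixed fold of the main value. For CLIP alignments and loop shares it means within the interval of the main value. As shares of mitochondrial reads, the ratio of the 10 spans was 0.998 (0.967 to 1.03) and no longer below 1, that of mt-Tm turned to 1.70 (1.60 to 1.80), that of mt-Tt rose to 2.32 (1.41 to 3.92), above 1, and that of mt-Tl2, at 0.713 (0.362 to 1.37), was no longer below 1, which left 5 of 8 spans lower. This divides out the fold of all mitochondrial reads by construction. Without its most used position mt-Tt turned to 0.861 (0.507 to 1.49), and neither interval excludes 1. With each position counted once, 0 of the 5 spans with 30 positions were lower, though the 10 spans together kept a ratio of 0.707 (0.558 to 0.893). This counts few items. Shifting positions by 1 nt, to the latest base, took the end of mt-Tv out of its span, so that 0 spans had their leading end at the tRNA 3′ end in CU5T45 and 0 in oligo(dT)10-25. Spans as annotated gave a ratio of 0.564 together and 0.574 for mt-Ti. Both take in the first bases of mt-Ti, where the mRNA mt-Nd1 has its annotated end. The second most used position lay in the T loop in 3 of 8 spans in each library. The share of reads in the loop was 17.1% in CU5T45 and 15.4% in oligo(dT)10-25 without mt-Ts2 and mt-Ti, and 55.4% in oligo(dT)10-25 by the earliest base. CLIP alignments, 41 as the mean of the replicates, were 24 by their 3′ end and 17.5 without mt-Tv, and 36 to 46 with 1 replicate left out. With 10 reads per cluster, 18.3% of clusters were higher in CU5T45 against 27.5%. The removal of mt-Tm, of position 3844 and, for CLIP, of mt-Tv, and the choices on the T loop were added after seeing the data. No paired analysis was possible because each oligo has 1 library and the CLIP replicates form 1 group. For spans under 30 reads over both libraries no ratio is given.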

Other observations

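The letters AAATCC, shared by the leading ends inside mt-Tl1, mt-Tm and mt-Tl2, were searched on both strands of the mitochondrial sequence after the ends had been seen. They occur at 10 places on the plus strand and 8 on the minus strand, and 3.73% of 241 plus-strand windows of 60 nt hold them. On the plus strand, 3 places are in these 3 tRNA genes and 7 are elsewhere. With the latest end at the third A, mt-Tl1 had 89 CU5T45 and 126 oligo(dT)10-25 reads, mt-Tm 164 and 145, and mt-Tl2 5 and 5. At the 7 other places, in mt-Rnr1, mt-Rnr2, mt-Nd2, mt-Nd3 and mt-Nd5, the counts reached at most 15 and 16, with medians of 7 and 3. Counts were not divided by the amount of each RNA.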
